A study of Mus musculus with 4 samples.

Results

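The 9 genes described here are Tm4sf4, Ly6e, Muc1, Lgals4, Cldn18, Tmprss2, Anxa13, Fscn1 and Slc44a3. Most encode surface, junction and other proteins of gut-type epithelium. They were chosen by name for RNA at very low or much lower levels in the mutant input than in the wild-type input. They are 9 of 13478 genes listed in both deposited gene tables. They were looked up by gene symbol in the mutant table and matched to the wild-type table on the identifier, and all 9 were found in both. Since the 2 input levels chose the genes, the input difference is given as a description, with no test.

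RNA was measured in mouse pancreatic cancer-associated fibroblasts (CAFs, cells named 15376CAFs in the study) made to overexpress Lin28b with a Flag tag. Lin28b is an RNA-binding protein that blocks maturation of let-7 microRNAs. The 4 libraries were an anti-Flag immunoprecipitate (IP) from cells with the RNA-binding deficient mutant (Lin28b-MU), an IP from cells with the wild-type protein (Lin28b-WT), and 1 input of each. Each group held 1 library, so no difference has a replicate check and no test between groups was possible. Cells of both constructs carried an overexpressed Flag-tagged protein. The sources used here do not say whether each construct was a clone or a pool, or how the cells of the constructs relate.

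Levels are read as FPKM, fragments per kilobase of transcript scaled to the library total. In single-exon pseudogenes the levels moved in steps of 1 read base, which gave between 18591494 and 21636473 reads of 150 bases per library, and a level of 1 then stood for 18.6 to 21.6 reads per kilobase. Lin28b itself stood at 36.7 and 8.99 in the mutant and wild-type IPs, and at 30.01 and 13.8 in the mutant and wild-type inputs. The few fibroblast markers listed did not bear out the labelled cell type, though mesenchymal genes were abundant. Of 16 genes on a mesenchymal list, 11 were listed in both tables, Fscn1 among them. Their summed levels were 996 in the mutant input and 1333 in the wild-type input. Genes listed in the wild type alone carried no symbol, so markers among them could not be counted. Of 20 fibroblast markers, 5 were listed in both tables, with a summed level of 2.59 in the mutant input and 7.26 in the wild-type input, and Col1a1 stood at 0.404 and 0.722 in those libraries. Of 30 general epithelial genes, 17 were listed in both tables, with summed levels of 1555 and 2283 FPKM. Much of the mutant sum was Krt8 at 494, Krt18 at 441 and Krt19 at 322. Endothelial markers summed to 0.7001 and 0.374, and no acinar or islet marker was listed in both tables.

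The epithelium of stomach, intestine and pancreatic duct seals its cells with claudins, coats its apical face with mucins and other glycoproteins, and displays membrane-bound proteases and lectins that act on them. Cldn18 encodes a claudin with alternative first exons used in stomach and lung, Muc1 a transmembrane mucin of glandular epithelia, and Tmprss2 a membrane-anchored serine protease. Lgals4 encodes a galectin of the alimentary tract, a lectin that binds galactose-bearing glycans, and Anxa13 an annexin of intestinal epithelium that binds membranes in a calcium-dependent manner. Tm4sf4 belongs to the L6 family of proteins with 4 membrane spans, and Slc44a3 to the choline transporter-like family. The label of a gut-type epithelial set suits Ly6e and Fscn1 poorly: Ly6e encodes a lipid-anchored surface protein induced by interferon in many cell types, and Fscn1 encodes fascin, which bundles actin in filopodia and is best known from mesenchymal, neuronal and dendritic cells. RNA binding by Lin28 proteins has been described for many mRNAs, and the question for these genes was whether the wild-type IP held more of their RNA than its input did.

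The start regions of 7 of the 9 genes were available from RefSeq (build GRCm38.p6), in 8 windows of 300 bases that reach from 250 bases before to 50 bases after an annotated start. Windows of 3 genes are shown because they carried most of the motif matches in this set of genes that were low together. Capitals mark matches, on either strand, to 6 motifs. These were the letters of the core promoter element for TBP, searched as TATAAA, the GC box searched as GGGCGG, a half-site of the HNF1 factors searched as GTTAAT, the GATA factor site searched as AGATAA, the E-box type bound by ZEB and SNAI factors searched as CACCTG, and the CDX-type site searched as TTTATG, and none of these motifs overlap in the 3 windows.
Tm4sf4, chr3:57425160-57425459, + strand: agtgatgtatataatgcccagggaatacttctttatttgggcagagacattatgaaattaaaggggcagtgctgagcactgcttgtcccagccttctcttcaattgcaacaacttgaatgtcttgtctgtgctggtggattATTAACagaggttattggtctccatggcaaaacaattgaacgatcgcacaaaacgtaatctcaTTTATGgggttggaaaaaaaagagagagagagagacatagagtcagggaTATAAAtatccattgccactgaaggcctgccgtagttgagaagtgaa
Muc1, chr3:89228806-89229105, + strand: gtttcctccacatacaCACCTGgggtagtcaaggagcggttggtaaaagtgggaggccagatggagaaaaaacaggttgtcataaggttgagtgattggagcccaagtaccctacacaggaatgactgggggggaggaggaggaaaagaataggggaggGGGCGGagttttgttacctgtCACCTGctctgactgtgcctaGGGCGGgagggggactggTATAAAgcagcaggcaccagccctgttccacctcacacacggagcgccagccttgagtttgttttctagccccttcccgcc
Cldn18, chr9:99717218-99717517, - strand: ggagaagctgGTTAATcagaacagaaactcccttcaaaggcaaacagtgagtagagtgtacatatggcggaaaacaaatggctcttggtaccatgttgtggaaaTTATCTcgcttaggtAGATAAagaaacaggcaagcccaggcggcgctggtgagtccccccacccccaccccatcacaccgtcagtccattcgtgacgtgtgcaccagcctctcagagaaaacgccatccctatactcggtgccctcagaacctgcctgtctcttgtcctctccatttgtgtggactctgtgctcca

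The matches were scattered over the genes. Cldn18 had another annotated start, and its window there (chr9:99710014-99710313), not shown above, held none of these motifs. The letters of the first motif lay in 3 of the 8 windows, against 13.6% of all 32851 windows of the same length, at position -31 from the start in Muc1 and Fscn1. In Tm4sf4 they began at position 4, downstream of the annotated start, which is not where that element acts. The GC box lay in 3 of 8 windows, against 35.7% of all, and the E-box in 3 of 8, against 20.2%. The HNF1 half-site lay in 2 of 8 (7.099% of all), in Tm4sf4 and Cldn18, the GATA site in 1 of 8 (11.2%) and the CDX-type site in 1 of 8 (11.9%). These are matches of letters, and factor binding was not measured. The motifs were chosen after these sequences were seen, which can raise the shares in these windows, so nothing is read from them.

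In the inputs, 6 of the 9 genes stood below 1 FPKM in the mutant and between 26.9 and 263 in the wild type. In bulk RNA, fewer cells of a type and less RNA per cell cannot be told apart. The levels of the 2 tables were normalised apart by the authors, and the median difference over all genes in both tables was only 0.03 on the log2(level + 1) scale. On that scale the 9 genes were between 9.36-fold and 221-fold lower in the mutant input, while 4.03% of all genes were at least 2-fold lower and 3.68% at least 2-fold higher. Among the 6189 genes with at least 10 FPKM in the wild-type input, which hold all 9, 4.85% were at least 2-fold lower. Since these values chose the genes, nothing is read from their count. Ordered from the most lower in the mutant, 8 of the 9 were among the first 20 of the 13478 genes, and Lgals4 was at place 43.

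Among the surface proteins, Tm4sf4 (3:57425314-57441677) stood at 0.189 and 185 FPKM in the mutant and wild-type IPs, and at 0.194 and 263 in the mutant and wild-type inputs. It had the lowest mutant-to-wild-type input difference of all genes in both tables, 221-fold lower, and its mutant input level stood for 3.70 reads per kilobase against 4894 in the wild-type input. Ly6e (15:74955051-74959905) stood at 0.0335 and 41.2 in the mutant and wild-type IPs, and at 0.174 and 114 in the mutant and wild-type inputs. Its mutant IP level stood for less than 1 read per kilobase (0.725), so it was near the limit of what these libraries could register. Muc1 (3:89229057-89233381) was lower in the mutant but not absent. It stood at 1.19 and 57.4 FPKM in the mutant and wild-type IPs, and at 6.77 and 134 in the mutant and wild-type inputs. Cldn18 (9:99689461-99717267) stood at 0.0551 and 59.3 in the mutant and wild-type IPs, and at 0.226 and 41.1 in the mutant and wild-type inputs. These input levels stood for 4.31 reads per kilobase in the mutant and 765 in the wild type.

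The membrane-anchored protease gene Tmprss2 (16:97564682-97611195) stood at 0.417 and 45.6 FPKM in the mutant and wild-type IPs, and at 0.272 and 39.9 in the mutant and wild-type inputs. Slc44a3 (3:121459528-121532404), the least abundant of the 9 in the wild-type input, stood at 0.0592 and 23.9 in the mutant and wild-type IPs, and at 0.108 and 26.9 in the mutant and wild-type inputs. Both were below 0.5 FPKM in each mutant library. Fscn1 (5:142960343-142973185) had no listed level in the mutant IP (0), against 20.7 FPKM in the wild-type IP. Its input levels were 0.342 in the mutant and 53.1 in the wild type.

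The galectin gene and the annexin gene of the set kept measurable RNA in the mutant. Lgals4 (7:28833854-28841708) stood at 7.08 and 149 FPKM in the mutant and wild-type IPs, and at 34.7 and 333 in the mutant and wild-type inputs. At 34.7 it was above 85.1% of the genes in the mutant input, so the description of the set as absent from that library does not hold for it. Anxa13 (15:58341363-58389383), whose identifier is typed as a processed transcript in the mutant table, stood at 3.04 and 167 in the mutant and wild-type IPs, and at 4.82 and 195 in the mutant and wild-type inputs. With Muc1, these are the 3 genes of the set above 1 FPKM in the mutant input.

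**Figure D1:**
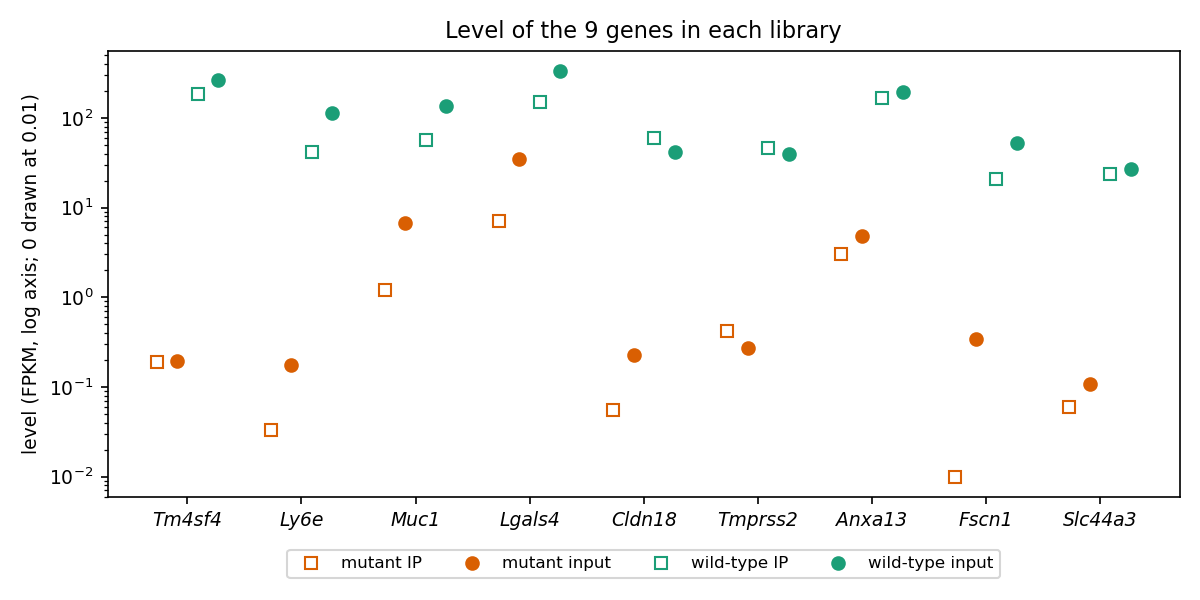
Level of each of the 9 genes (x axis) in FPKM (y axis, log scale, a level of 0 drawn at 0.01), with 1 point per library: open squares are IPs, filled circles inputs, orange the mutant and green the wild type. Each gene has both orange points below both green points. Lgals4, at 34.7 in the mutant input, comes nearest to the wild-type levels.

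In the mutant IP, which came from the same labelled cells as the mutant input, low levels follow from the choice of the genes, and nothing is read from their count. All 9 genes were at least 2-fold lower in the mutant IP than in the wild-type IP, by 18.6-fold for Lgals4 to 157-fold for Tm4sf4 on the log2(level + 1) scale. With 0.01 added in place of 1, the differences for the genes near 0 grew: the IP difference was -9.86 on the log2 scale for Tm4sf4 and -11.02 for Fscn1, and the input difference -10.33 for Tm4sf4, while those for Lgals4 were -4.39 in the IPs and -3.26 in the inputs. Over all genes, 16.0% were lower and 5.55% higher in the mutant IP by 2-fold on the log2(level + 1) scale, with a median difference of -0.16 over all genes. No level of a gene in a mutant library reached its level in a wild-type library. Summed over the set, the IPs held 12.1 FPKM in the mutant and 749 in the wild type, and the inputs 47.6 in the mutant and 1201 in the wild type.

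**Figure D2:**
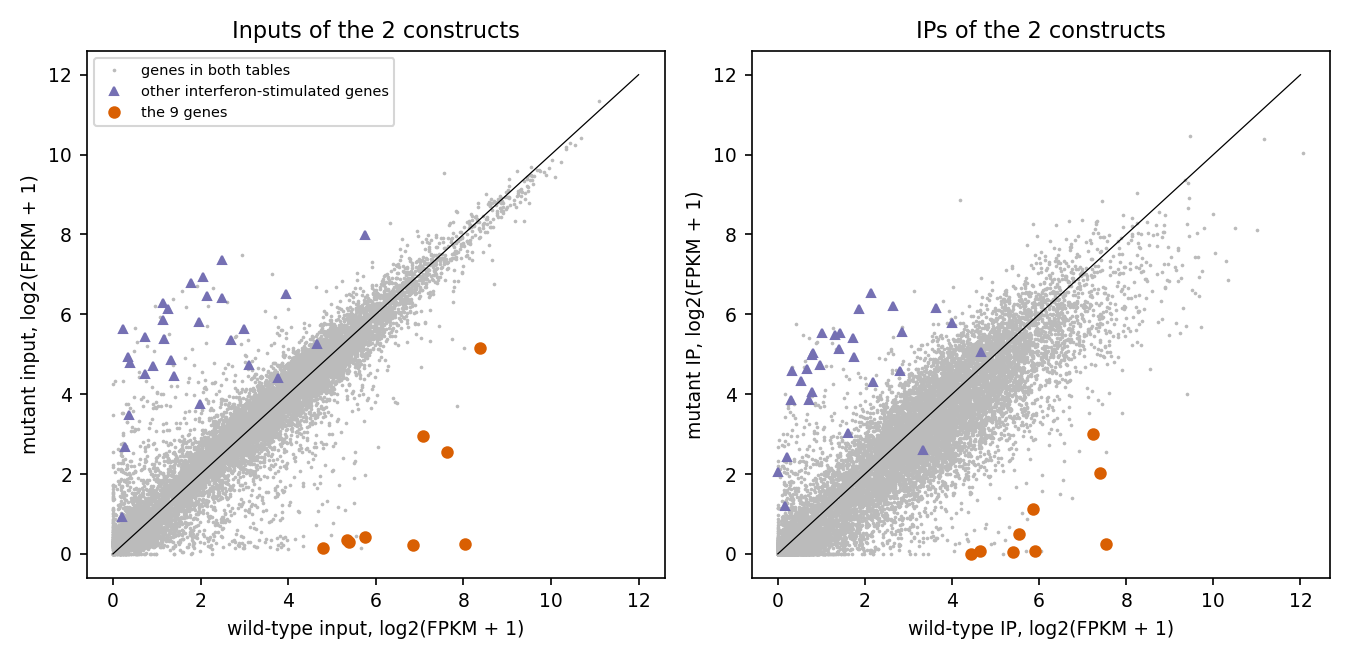
Levels of the 13478 genes in both tables as log2(FPKM + 1), mutant on the y axis against wild type on the x axis, for the inputs (left) and the IPs (right); grey points are genes, orange circles the 9 genes, purple triangles the other interferon-stimulated genes, and the line marks equality. The 9 genes lie below the line in both panels, and most interferon-stimulated genes lie above it.

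Before centring, recovery beyond input was limited to small gains in 2 of the 9 genes. In the wild type, 4 of the 9 lay above the median ratio of all genes and 5 below it. Recovery is given as the log2 ratio of IP over input with 0.01 added to each level, the form of the deposited ratio, and a gene was called enriched or lower at 2-fold with an authors' q-value under 0.05. Against its own input, the wild-type IP held 1.44-fold more Cldn18 RNA (59.3 in the IP and 41.1 in the input) and 1.14-fold more Tmprss2 RNA (45.6 and 39.9). The other 7 genes were lower in the wild-type IP than in its input. By this rule 0 of the 9 passed as enriched in the wild type, against 7.03% of all genes, and 4 passed as lower, against 20.4% of all genes. After centring on the median of all genes, which was -0.28, the shares of enriched and lower genes rested on 1608 and 1846 genes in place of 947 and 2754, and the count of lower genes in the set became 2. Centred in this way, Anxa13 and Slc44a3 stood just above 0, at 0.05 and 0.10, beside Tmprss2 at 0.47 and Cldn18 at 0.81. The other 5 stood below 0. The input level stands both in the choice of the genes and in this ratio, so the ratios are a description.

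The 4 genes lower in the wild-type IP were Ly6e, Fscn1, Muc1 and Lgals4. Ly6e was 2.77-fold lower in the IP, Fscn1 2.56-fold, Muc1 2.34-fold and Lgals4 2.23-fold. Muc1 and Lgals4 lost this call after centring, with log2 ratios of -0.95 and -0.88, and Ly6e and Fscn1 kept it. Tm4sf4, Anxa13 and Slc44a3 lay between, with log2 ratios of -0.51, -0.23 and -0.18, and the last had a q-value of 0.120 in the authors' deposited table. In that table the q-value was under 0.05 for 8 of the 9 genes in the wild type, including 3.75e-73 for Cldn18 and 5.05e-07 for Tmprss2; it compares 2 libraries and carries no replicate error.

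The ratios were also set beside genes of like abundance, those within 2-fold of each gene's level in the wild-type input. Cldn18 exceeded 84.4% of 2952 such genes and Tmprss2 72.1% of 3039. Tm4sf4 (53.7% of 298), Slc44a3 (53.1% of 3956) and Anxa13 (60.6% of 426) lay near the middle of theirs. Ly6e exceeded 11.8% of 879 genes, Fscn1 10.7% of 2291, Muc1 18.8% of 693 and Lgals4 20.7% of 227. The shorter genes of the set stood lower: Muc1, Ly6e, Lgals4 and Fscn1 have spans of 4.33, 4.86, 7.86 and 12.8 kb, and the other 5 have spans from 16.4 to 72.9 kb. The part of gene length in these ratios was not tested.

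In the mutant IP none of the 9 genes was enriched over the mutant input, where 5.48% of all genes were, and 5 were lower, where 35.8% of all genes were. Centring on the median of all genes, -0.59, gave 2095 enriched and 3006 lower genes in place of 738 and 4819. The 5 lower genes were Fscn1, Muc1, Lgals4, Ly6e and Cldn18. For Muc1 and Lgals4, which had measurable levels, the mutant IP was 5.66-fold and 4.89-fold below its input, and the wild-type IP 2.34-fold and 2.23-fold below its own. With 1 added to each level, only these 2 remained lower, since the RNA of the other 3 was near 0 in both mutant libraries. Tmprss2 had a log2 ratio of 0.60 in the mutant, from 9.03 and 5.19 reads per kilobase in the IP and the input, with a q-value of 0.141 in the authors' deposited table. For the 6 genes under 1 FPKM in the mutant, both libraries held at most 9.03 reads per kilobase, so their mutant ratios rest on few reads.

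**Figure D3:**
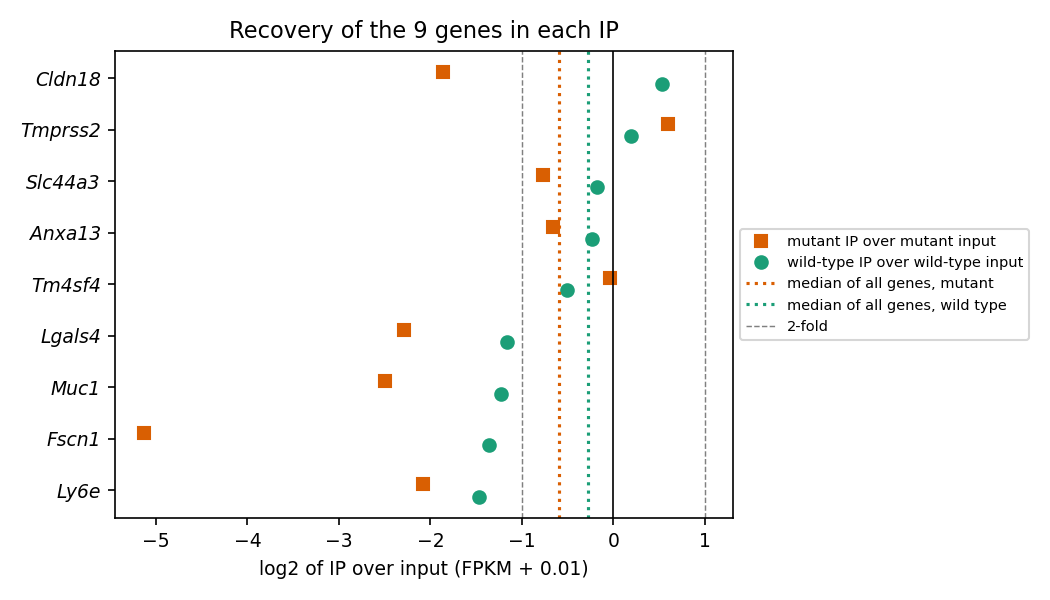
Log2 ratio of IP over input (x axis, 0.01 added to each FPKM level) for each gene (y axis); orange squares are the mutant and green circles the wild type, dotted lines the medians of all genes in both tables (-0.59 in the mutant, -0.28 in the wild type), dashed lines 2-fold. No wild-type point reaches the 2-fold line on the right, and Cldn18 and Tmprss2 are the only wild-type points above 0.

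Peaks were listed for the same 2 genes that exceeded their wild-type input. A peak is a stretch of the genome where the authors' caller found IP signal to be concentrated, and the fold of each is the authors' own. Of the 9 genes, Cldn18 and Tmprss2 carried a wild-type peak with its summit in the gene on the same strand, and none carried a mutant peak. Over all 13478 genes, 25.1% carried a wild-type peak and 18.6% a mutant peak, beside a wild-type share of 22.2% for these 9 genes. Cldn18 held 2, at 9:99691012-99691628 with a fold of 2.34 and at 9:99692163-99692978 with a fold of 2.48, with summits 1.87 and 2.87 kb inside the annotated 3' end of the gene. Tmprss2 held 1, at 16:97570535-97570734 with a fold of 2.17, its summit 5.86 kb inside the 3' end. All 3 were weak within the list of 11912 peaks, whose median fold was 3.77: from 13.8% to 21.1% of its peaks had a lower fold. Among the 3300 genes with at least 20 FPKM in the wild-type IP, a level all 9 reached, 37.6% carried a mutant peak. A wild-type peak was carried by 58.5% of them, so the 22.2% of the 9 was below the share at that level. This difference was not tested. The 9 genes were chosen for low mutant levels, so nothing is read from their lack of a mutant peak. No peak lay on the opposite strand of any of the 9 genes. Exon models were not used here, so the peaks were not placed in exons or untranslated regions.

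Chromosomal neighbours of the 9 genes were lower in the mutant input at a share near that of all genes of their level. Neighbours were genes within 500 kb of a member and with at least 5 FPKM in an input. Of 92, 4 were at least 2-fold lower in the mutant input (4.35%) and 6 were higher. Over all 8925 genes at that level 4.66% were lower. The share of higher genes at that level was not counted. Without a level filter it was 3.68% of all 13478 genes. Wwtr1, which lies 14.0 kb from Tm4sf4 and encodes a Hippo pathway coactivator, stood at 39.5 FPKM in the mutant input and 29.6 in the wild-type input. Cnn3, 1.32 kb from Slc44a3, encodes an actin-binding calponin and stood at 107 and 71.4 in the same libraries. Actb, 53.6 kb from Fscn1, stood at 1261 in the mutant input and 1386 in the wild-type input. Around Muc1 none of 31 neighbours was lower and 1 was higher. The 4 lower neighbours lay around Anxa13, with 2 of 10, and Lgals4, with 2 of 21. Fer1l6 stood at 1.95 FPKM in the mutant input and 10.2 in the wild-type input, and Tmem65 at 13.5 and 29.7. The others were Fam98c at 0.847 and 5.08, and Gmfg at 2.33 and 6.62. Fer1l6, Fam98c and Gmfg reached 5 FPKM in the wild-type input alone, so that filter favoured their direction.

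Both neighbours of Ly6e that passed the level of 5 FPKM were higher in the mutant input, as was 1 of the 3 for Tmprss2. These neighbours, Ly6a, Ly6c1 and Mx2, reached 5 FPKM in the mutant input alone, so nothing is read from their direction. Ly6a and Ly6c1, surface-protein genes of the same family as Ly6e, lie 35.0 and 84.1 kb from it. Ly6a stood at 73.5 FPKM in the mutant input, against 3.53 in the wild type, and Ly6c1 at 19.2, against 0.693. Mx2, an antiviral gene of the interferon response that is typed as a polymorphic pseudogene in the table, lies 3.78 kb from Tmprss2 and stood at 5.39 in the mutant input and 0.219 in the wild-type input. Of the 29 other genes on a list of interferon-stimulated genes, 26 exceeded 2-fold in the mutant input and 0 were lower, with a median difference of 3.78 on the log2(level + 1) scale. Ly6e, itself on that list, differed by -6.62. Isg15, a ubiquitin-like interferon-induced gene, stood at 163 in the mutant input and 4.63 in the wild-type input.

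**Figure D4:**
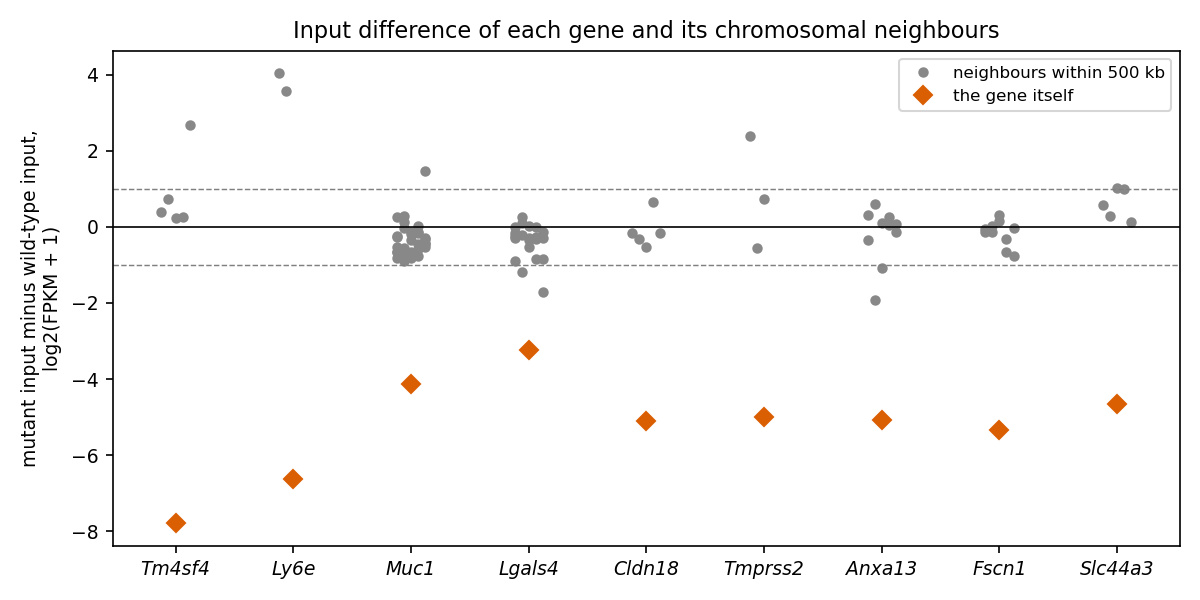
Difference of mutant input minus wild-type input in log2(FPKM + 1) (y axis) for each of the 9 genes (orange diamonds) and its neighbours within 500 kb with at least 5 FPKM in an input (grey circles), by gene (x axis); dashed lines mark 2-fold. Each diamond lies below all of its neighbours, of which 4 of 92 are below the lower dashed line.

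The families of the 9 genes held lower and higher members. Of 11 other annexins, 1 was lower in the mutant input: Anxa6, which binds membranes and the cytoskeleton, stood at 1.42 FPKM there and at 44.5 in the wild-type input, while Anxa2 stood at 382 and 432. Of 5 other galectins none was lower and 1 was higher: Lgals9 stood at 197 in the mutant input and 93.5 in the wild-type input, and Lgals2, a gut galectin, at 320 and 574 with a log2(level + 1) difference of -0.84. The nearest measured relative of Tm4sf4, Tm4sf1, stood at 223 in the mutant input and 132 in the wild-type input. Of 3 other choline transporter-like genes, 1 was lower: Slc44a1 stood at 28.03 and 73.3. Of 7 other actin bundlers, 1 was lower and 1 higher, and the plastin gene Pls3 stood at 36.6 and 37.5 in the mutant and wild-type inputs. Muc13, an epithelial surface mucin gene and the other mucin gene measured on a transmembrane mucin list, was lower, at 3.03 and 8.46. Of 11 other claudins and tight junction genes, 4 were lower and none higher, among them Cldn2 at 2.42 and 19.2 and Cldn6 at 14.04 and 55.7, whereas the scaffold gene Tjp1 stood at 71.7 and 81.7.

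Gut and duct identity genes are given by list, as counts with no test of their difference from all genes. Apart from the 9, the lower genes were 3 of 7 on the gastric and foregut list, 3 of 16 on the intestinal list, 5 of 12 on the pancreatic ductal list and 7 of 17 on the general epithelial list, beside 4.03% of all genes, many of them weakly expressed and so less able to pass 2-fold with 1 added; higher genes were 1, 0, 1 and 0. The median differences were -0.54, -0.65, -0.68 and -0.83 on the log2(level + 1) scale, against 0.03 for all genes. The gastric cell-surface gene Vsig1 stood at 17.6 FPKM in the mutant input and 59.98 in the wild-type input, and Cdhr5, a brush-border cadherin, at 1.14 and 38.5. In contrast the gut cadherin gene Cdh17 stood at 65.1 and 109, the intestinal keratin gene Krt20 at 84.3 and 126, and Krt8 at 494 and 601. Of 18 epithelial and foregut transcription factor genes 5 were lower and 1 higher, with Hnf4a at 49.6 and 82.9 and Cdx2 at 17.97 and 40.8, both regulators of gut epithelial genes. The foregut factor gene Sox2 was the one that was higher, at 9.45 in the mutant input and 0.858 in the wild-type input.

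Mesenchymal genes split. Apart from Fscn1, 1 of 10 on that list was lower in the mutant input and 3 were higher. S100a4, which encodes a calcium-binding protein of motile cells, stood at 40.7 FPKM in the mutant input and 214 in the wild-type input, and Vim at 547 and 607. Cdh2, the neural cadherin gene, stood at 34.08 and 14.97, and Zeb2, which encodes a repressor of epithelial genes, at 11.6 and 3.70.

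**Figure D5:**
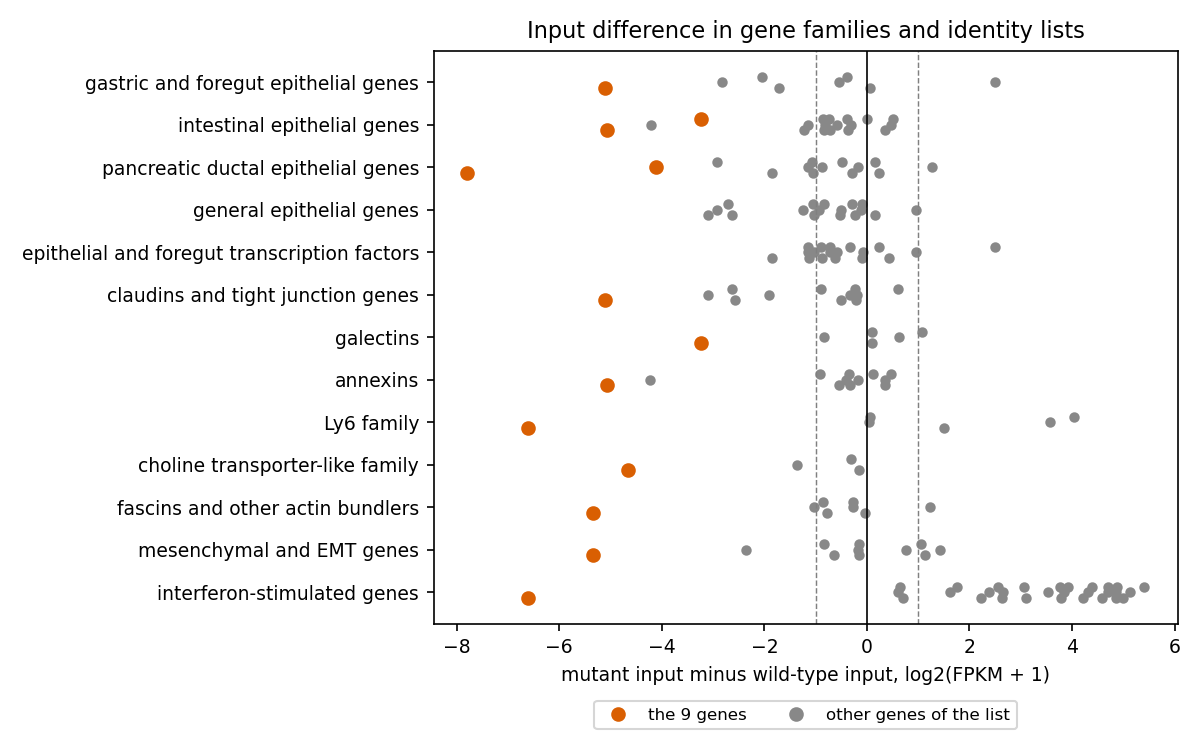
Difference of mutant input minus wild-type input in log2(FPKM + 1) (x axis) for the genes of 13 families and identity lists (y axis). Each point is a gene in both tables. Orange points are the 9 genes except Tmprss2, which is on none of these lists. Grey points are the other genes of a list, and dashed lines mark 2-fold. The orange points lie to the left of the other genes of their lists, except that Cdhr5 lies left of Lgals4. Of 29 other interferon-stimulated genes, 26 lie to the right of the right dashed line.

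Other genes shared the pattern of the set. Likeness was measured as the Euclidean distance between a gene's profile over the 4 libraries, in log2(level + 1) centred per gene, and the median profile of the 9, over 7317 genes with at least 10 FPKM in a library. The nearest were P3h4 (distance 0.136), whose product takes part in collagen modification, Fam20c (0.440), a kinase of secreted proteins, Lad1 (0.465), a basement membrane zone protein gene, Aqp1 (0.714), a water channel gene, Anxa6 (0.843), Avil (0.906), an actin-binding gene of the villin family, Gipc2 (0.924) and the predicted gene Gm42047 (0.928). The 9 themselves lay at 0.231 for Anxa13 to 2.46 for Tm4sf4. P3h4 had IP levels of 0 in the mutant and 34.8 FPKM in the wild type, and input levels of 0.374 and 45.9. Fam20c stood at 0.213 and 30.2 in the mutant and wild-type IPs and at 0.240 and 53.2 in the mutant and wild-type inputs. Lad1 stood at 0.0494 and 50.6 in the mutant and wild-type IPs and at 0.393 and 51.1 in the mutant and wild-type inputs. A mutant input at least 10-fold lower was found for 41 of those 6189 genes (0.662%), which include 8 of the 9. Of the 41, the wild-type IP had 0 enriched and 10 lower genes, beside 313 enriched and 1186 lower of the 6189. Over all genes, 7.03% were enriched and 20.4% lower. The median log2 ratio of wild-type IP over input was -0.40 for the 41 and -0.27 for the 6189. Of the 33 outside the set, 0 were enriched and 7 lower, with a median of -0.40. The wild-type input stands both in the choice of these genes and in the ratio, so nothing is read from the difference.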

How the data were processed

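RNA from 2 IPs and 2 inputs was analysed, 1 library per group, from the authors' 2 deposited gene tables and 2 deposited peak lists. The submitters' processing notes name the builds GRCm38 and mm10 and list bedtools, HISAT2 (2.1.0), HOMER (4.11.1) and MACS2 (2.2.7.1). The deposited levels carry no unit in the headers and were read as FPKM from the values. Per the file headers, the authors also deposited a log2 ratio of IP over input with a p-value and a q-value; the sources used here do not name the test or the counter. Adding 0.01 to IP and input levels before the ratio gave back the deposited log2 values to within 1.57e-09. In the deposited peak lists (narrowPeak layout), the fold (a ratio) was used to describe and filter peaks, and the display score and −log10 p-value and q-value were not used.

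Between constructs, differences were taken in log2(level + 1), and IP over input with 0.01 added. Gene-span lookups gave peaks by summit and strand. Depth came from levels of single-exon pseudogenes times their length, of which 96.1% to 96.5% lay within 0.1 base of a whole number at the best step; this step was tested on simulated data. It assumes levels scaled to length and library total, and the commonest total was 150 bases. Counting error of single levels was not computed, since transcript lengths were not used. Symbols stood in the mutant table alone, so the 1277 genes of the wild-type table alone, 36 of them with at least 10 FPKM in the wild-type input, could not be members. The members and the 21 gene lists were chosen with earlier results of these data known. Named genes were the members; up to 4 most abundant others per list; the 10 most lower and 5 most higher other genes in the mutant input, leaving out predicted genes and pseudogenes; the 8 nearest profiles; Lin28b, Actb and Gapdh. Chromosomal neighbours and other list members outside this rule, such as Cldn2, Cdx2, Sox2, Cdh2 and Zeb2, were chosen after their values were seen. Promoter motifs were chosen after the sequences were seen. Analyses used Python 3.11.15, pandas 2.3.3 and numpy 2.4.6.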

Additional observations from a re-analysis of the deposited data

Results flagged for a closer look

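The log2 ratio of IP over input for Cldn18 had opposite signs in the constructs, -1.86 in the mutant and 0.53 in the wild type, a difference of -2.39. The difference was not tested, with 1 library per group, and the mutant levels stood for 1.19 reads per kilobase in the IP and 4.31 in the input.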

How the results depend on the processing

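No paired analysis was possible because each group held 1 library, and no library could be left out for the same reason. The 9 genes stayed at least 2-fold lower in the mutant input with pseudocounts of 0.01 and 0.1, after centring and after scaling the columns, and in the mutant IP with a pseudocount of 0.01 and after centring; the sizes moved with the pseudocount. Further, 0 of them were enriched in either IP under each alternative. The members lower in the wild-type IP were 4, and 2 after centring on the median of all genes or of genes of like input level. The members lower in the mutant IP were 5, 2 with a pseudocount of 1, which shrinks ratios of levels near 0, and 4 after centring on genes of like input level, where Cldn18 lost its call (-0.93). With peaks of fold 5 or more, the members with a wild-type peak became 0. Over all genes, 543 were lower and 496 higher in the mutant input; a filter at 10 FPKM left 300 and 249, and a pseudocount of 0.01 gave 1121 and 1172. A pseudocount of 1 gave 505 enriched and 1466 lower genes in the wild-type IP and 436 and 3063 in the mutant IP. Centring gave 1608 enriched genes in the wild-type IP, and 2095 enriched and 3006 lower genes in the mutant IP. Of the values for single members, 98 kept their side of 2-fold, 8 fell short of it and 2, both for Tmprss2 in the mutant after centring (1.19 and 1.63 in log2), passed it without an authors' q-value under 0.05. Depth limits the mutant ratios of the 6 genes below 1 FPKM.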

Other observations

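The wild-type table alone held genes with no symbol and no mutant level. Named by the annotation in that table, abundant ones were histocompatibility 2, K1, K region, an antigen-presenting molecule, with 30.6 FPKM (wild-type IP) against 62.5 FPKM (wild-type input), neural cell adhesion molecule 1 at 40.7 and 61.1, synaptotagmin VII at 38.3 and 48.3, and glypican 1, a heparan sulfate proteoglycan, at 21.8 and 31.4. The median level of the 1277 genes in the wild-type input was 0.223 FPKM. Reads of histocompatibility genes can be shared among near-identical copies, so that value is uncertain.

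At the other end of the input comparison, the 5 named genes most higher in the mutant input were Ifi44, Apol9b, Gbp3, Oas3 and Apol9a. Ifi44, an interferon-induced gene, stood at 48.5 FPKM in the mutant input and 0.173 in the wild-type input, and Gbp3, a guanylate-binding protein gene, at 49.8 and 0.427. Apol9a and Apol9b are near-identical copies, so their levels are uncertain. Further genes much lower in the mutant input, outside the families described, were H1f1, a linker histone gene, at 11.96 and 230.1 FPKM, and Ddah2, an enzyme gene of methylarginine breakdown, at 0.142 and 19.2. None of these 7 genes were enriched in the mutant IP, and Ifi44 alone was enriched in the wild-type IP, with 0.730 FPKM there against 0.173 FPKM in its input.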
